A study of Macaca fascicularis with 44 samples.

Results

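The syncytiotrophoblast (STB) cells were the cells that the authors' deposited annotation names STB, 111 of 3682 cells (3.01%). All 111 came from 1 of the authors' clusters. The class was therefore named from the expression of the same genes that are described here, and STB cells are set against other cells as a description, with no test.

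The series measured messenger RNA in single cells of wild-type (WT) cynomolgus monkey embryos (Macaca fascicularis) that were grown in vitro from blastocysts. The embryos came from intracytoplasmic sperm injection, and per the labels' protocols expanded blastocysts were put into prolonged culture. Extraembryonic tissue was dissected away before the embryos were digested with TrypLE and single cells were picked by mouth pipette, so the share of STB cells depends on the dissection and the picking as well as on the embryo. The cells fell into 12 annotated classes, among them cytotrophoblast (CTB, 549 cells), extravillous trophoblast (EVT, 566 cells) and extraembryonic mesenchyme (EXMC, 1185 cells).

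All groups shared the WT genotype and the culture, and differed in embryonic day (E): E16, E18, E20, E21, E22, E23, E24 and E25. The 44 libraries came from 9 embryos, 2 at E16 and 1 at each later day. Day and embryo cannot be told apart after E16. Both E16 libraries used in the gene tests between days, 6 and 7, came from the second E16 embryo. Day and embryo therefore cannot be told apart in those tests either. Libraries of a day shared an embryo, except at E16 in the tests of the share. A p-value between days thus measures only the spread between libraries, which may be technical.

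The title and the time label of 2 libraries differ. Library 26 is titled E24 with time E21, and library 27 is titled E22 with time E24. Both were left out of the tests between days, apart from an alternative of the share test. Values given per embryo include them under the embryo that the annotation names, E21 for library 26 and E24 for library 27. The 11 STB cells of library 27 are also described separately. The labels give the 6 E23 libraries the code 20210308, which 1 E16 library (library 7) also carries, whereas the column names of the count table give all 6 another code that no other library has. No cell profile was identical to another.

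The median STB cell held 161787 counts (2128 to 1804909) over 5132 detected genes, with 6.90% of counts from mitochondrial genes. The median was 169543 counts in CTB cells, 71638 in EVT cells and 107826 in EXMC cells. Levels are CPM, counts scaled to the total of a cell or to the summed total of a class within a library. The libraries with at least 5 STB cells and agreeing labels entered the comparisons within a library, 9 in all: libraries 6 and 7 of E16, 34, 35 and 36 of E20, 11, 12 and 13 of E23 and 20 of E24. They held 57 STB cells, 5 to 11 each, with STB sums of 729934 to 3035818 counts. In a summed level, more expressing cells and more RNA per expressing cell cannot be told apart.

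The syncytiotrophoblast is the multinucleate layer that covers the placenta and meets maternal blood. It forms when mononuclear cytotrophoblast cells leave the cell cycle and fuse, helped by envelope proteins of endogenous retroviruses and by the transcription factor GCM1. It secretes chorionic gonadotropin and steroid hormones, and its membranes carry nutrients, iron and vitamins toward the embryo. A picked cell of this class may be a fragment of a syncytium or a cell on its way to fusion, which counts of RNA do not separate.

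CGA encodes the alpha subunit shared by chorionic gonadotropin and the pituitary glycoprotein hormones. In the 9 libraries its summed STB level was 16155 CPM at the lowest, 35312 at the median and 82363 at the highest, against 230.3, 752 and 2030.2 CPM in all other cells of the same libraries. Every STB sum lay above every other-cell sum, and the log2 ratio within a library, computed after adding 10 CPM to both levels, ran from 4.55 to 6.76 with a median of 5.41 (42.4-fold). All 111 STB cells had counts for CGA, which took 4.17% of all their counts against 0.0635% in other cells.

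Among single STB cells the CGA level ran from 1235 to 164504 CPM with a median of 34205, and the middle of the cells lay between 19451 and 56034 CPM. Summed over all libraries it was 1574 CPM in CTB, 1025 in EVT and 259 in EXMC. Cells of other classes reached the STB lower quartile in 12 cases, 8 EVT and 4 CTB cells. Few cells outside the class thus reached the CGA level of most STB cells.

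Counts for CGA also appeared in classes that should lack it, which matters for reading any share of cells with a count. After thinning every cell to 20000 counts, 100% of the 103 deep enough STB cells had a CGA count, against 92.0% of CTB and 65.7% of EXMC cells (unthinned, 100%, 96.7% and 85.1%). The thinning left out 8 STB, 24 CTB and 77 EXMC cells. In cells outside the trophoblast classes CGA stood at 287 CPM in the 28 libraries that held STB cells and at 48.9 CPM in the 16 that held none. The origin of those counts was not tested.

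The other genes proposed as markers of the class were restricted to part of the STB cells. GAST encodes the peptide hormone gastrin, SLC10A1 a bile acid transporter and DHRS9 a dehydrogenase of retinol and steroids. GAST had counts in 36.9% of STB cells (exact binomial interval 27.97% to 46.6%, counting error only), 12.02% of CTB and 7.59% of EXMC cells, and after thinning in 27.2%, 4.57% and 2.80%. SLC10A1 had counts in 30.6% of STB cells (22.2% to 40.1%), 4.37% of CTB and 2.78% of EXMC cells. DHRS9 had counts in 54.1% of STB cells (44.3% to 63.6%), 12.8% of CTB and 5.74% of EXMC cells. After thinning the shares were 28.2%, 0.762% and 0.812% for SLC10A1 and 47.6%, 4.76% and 1.71% for DHRS9 in the same order. All 3 shares in STB cells were above those in EXMC cells, which should lack these genes. At 100 CPM or more, 20 STB cells expressed GAST, 22 SLC10A1 and 46 DHRS9. All 3 passed that level together in 5 cells and none of them in 56 cells, whereas CGA passed it in all 111.

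By library, GAST ran from 0 to 2034 CPM in STB cells with a median of 21.1 CPM and was at least 2-fold higher than in other cells in 5 of 9 libraries. SLC10A1 ran from 0 to 972 CPM with a median of 9.59 and was at least 2-fold higher in 4 of 9. DHRS9 ran from 0 to 864 CPM with a median of 115 and was at least 2-fold higher in 7 of 9. Of the 4 proposed markers, CGA alone separated STB cells from the rest in each of the 9 libraries.

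Across 18693 genes, 81 (0.433%) were at least 2-fold higher in STB than in all other cells in each of the 9 libraries, and 6 (0.0321%) were at least 2-fold lower in each. These are called higher and lower below, and these 2 shares stand beside each count of called list members. In any 1 library 576 to 1274 genes were at least 2-fold higher. Against CTB cells of the same library 64 genes were called higher (0.342%) and 29 lower (0.155%), and against EVT cells in 7 libraries 84 (0.449%) and 73 (0.391%). Of the 81, 41 were called higher against other cells, CTB and EVT alike. All values that follow describe the class that these genes helped to define.

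**Figure D1:**
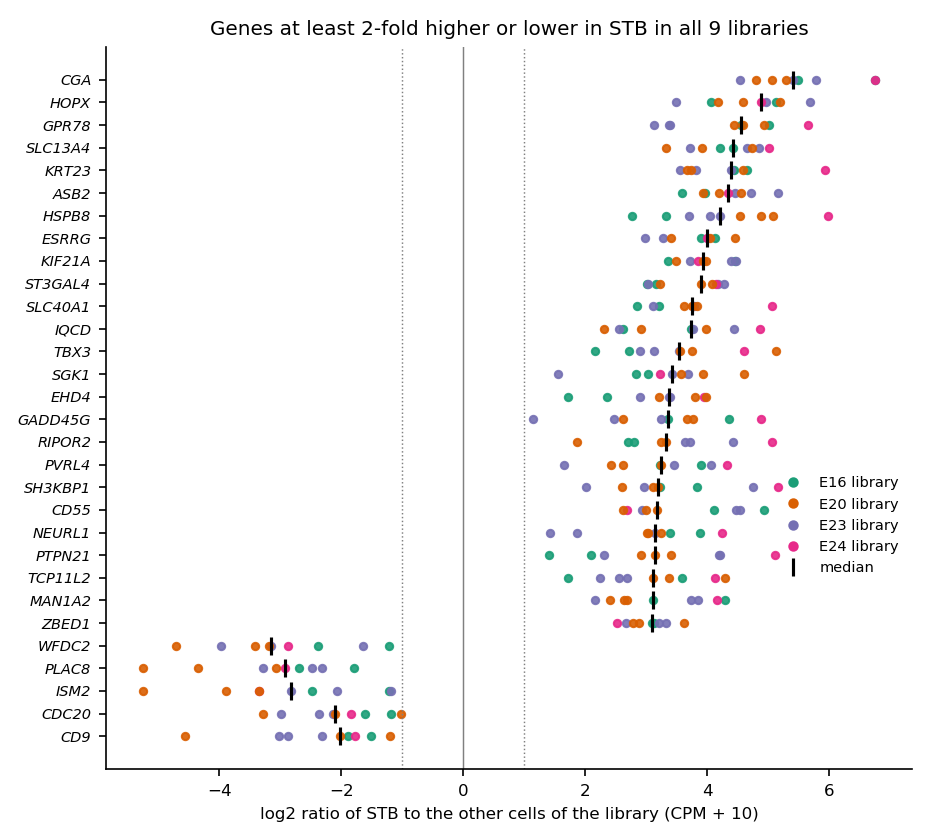
Log2 ratio of the summed STB level to the level of all other cells of the same library, after adding 10 CPM to both, for the 25 highest and 5 lowest named genes; each dot is 1 of 9 libraries coloured by day, bars are medians and dotted lines mark 2-fold. All dots of a gene lie beyond the 2-fold line on the same side, and CGA has the highest median (5.41).

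HOPX, a homeodomain protein that lacks DNA binding of its own and acts in differentiation, followed CGA. Its STB level was 530.3, 2204 and 5380 CPM at the lowest, median and highest library, against 8.27, 89.0 and 112 CPM in other cells, a median log2 ratio of 4.89 (3.49 to 5.68). HOPX had counts in 104 of the 111 cells, and the STB and other-cell ranges did not overlap. The sulfate and dicarboxylate carrier family member SLC13A4 stood at 234, 458 and 1076 CPM against 3.25, 14.3 and 33.2 CPM, a median log2 ratio of 4.43. KRT23, an acidic keratin, stood at 584, 881 and 1882 CPM against 13.9, 40.6 and 80.6 CPM, a median log2 ratio of 4.38. In both genes the lowest STB library lay above the highest level in other cells.

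The remaining leading genes spanned receptors, stress and signalling proteins. GPR78, an orphan receptor, had a median log2 ratio of 4.56, ASB2, a substrate adaptor of ubiquitin ligases, 4.34, and the small heat shock protein HSPB8 4.21. ESRRG, an orphan nuclear receptor that is abundant in placenta, had 4.00, the kinesin KIF21A 3.94 and the sialyltransferase ST3GAL4 3.91. The kinase SGK1, which regulates sodium transport, had 3.42 and the growth arrest gene GADD45G 3.36. All 25 leading genes were also called higher against EVT cells. All but SGK1, GADD45G and NEURL1 were called higher against CTB cells too.

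Of the 5 named genes called lower, 3 were abundant in EVT cells. WFDC2, a secreted protein with protease-inhibitor domains, stood at 5.48, 34.4 and 318 CPM in STB against 70.8, 1013 and 2721 CPM in other cells, a median log2 ratio of -3.16, and at 3068 CPM in EVT cells. PLAC8 (-2.93) and ISM2 (-2.83) reached 1662 and 3284 CPM in EVT cells. CDC20, the activator of the anaphase-promoting complex, had a median log2 ratio of -2.10 and was lower than in CTB in each library as well. CD9, a tetraspanin of cell membranes, had -2.02. The median log2 ratio of WFDC2 was -0.48 against CTB and -4.58 against EVT cells.

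Hormone genes did not share the pattern of CGA. Of 22 measured genes for placental peptide hormones, CGA alone was called higher. The median log2 ratio over the 21 with a count was 0.00, beside -0.04 over all 18693 genes. Only 12 of them reached 10 CPM in STB or in the other cells, and the added 10 CPM holds the ratios of low genes near 0. For 6 genes the median ratio was at least 2-fold higher and for 1 at least 2-fold lower. LHB, the beta subunit whose near-identical copies make its counts uncertain, was at least 2-fold higher in 8 of 9 libraries (median log2 ratio 2.26). LEP, which encodes leptin, was so in 7 of 9 (3.42), with 50.1, 278 and 936 CPM at the lowest, median and highest library against 7.95, 15.6 and 45.7 CPM in other cells. LEP reached 100 CPM in 31 of the 111 STB cells. A single cell held 94.9% of the LEP counts of STB cells in the second E16 embryo, 57.7% at E20, 34.4% at E23 and 81.4% at E24. NPPB, a natriuretic peptide, was at least 2-fold higher in 7 libraries and at least 2-fold lower in the other 2. INHA, the inhibin alpha subunit, had a median log2 ratio of 0.85 and KISS1 one of -0.26.

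Steroid synthesis was represented by a few steps. Of 20 measured genes, CYP11A1, FDXR and HSD3B1 were called higher, beside 0.433% of all 18693 genes. The median log2 ratio over the 19 with a count was 0.00, with 13 of them at 10 CPM or more in STB or in the other cells. For 4 genes the median ratio was at least 2-fold higher and for 2 at least 2-fold lower. CYP11A1, which cleaves the side chain of cholesterol, stood at 158, 294 and 869 CPM in STB against 17.5, 33.4 and 87.1 CPM in other cells. HSD3B1, which converts pregnenolone to progesterone, stood at 252, 1382 and 4552 CPM against 36.8, 99.6 and 332 CPM. These 2 enzymes act one after the other in progesterone synthesis, and FDXR (median log2 ratio 2.49) is the reductase that supplies electrons to CYP11A1. Their electron carrier FDX1 had a median log2 ratio of 0.58 and the cholesterol carrier STAR one of -0.43. CYP19A1, the aromatase that makes oestrogens, had counts in 1 of the 111 cells, and HSD17B1 had a median log2 ratio of 0.67.

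Genes of cell fusion went in both directions. Of 14 measured members, ERVFRD-1, the envelope gene that encodes syncytin-2, was called higher and CD9 lower, with a list median of -0.35. ERVFRD-1 stood at 13.7, 55.2 and 275 CPM in STB against 0, 0.507 and 2.72 CPM in other cells, and had counts in 47.7% of STB cells and 1.60% of EXMC cells. GCM1, which activates syncytin genes, was at least 2-fold higher in 7 of 9 libraries, at 182, 350 and 967 CPM against 17.6, 87.3 and 234 CPM. The syncytin-1 gene ERVW-1 was not analysed here.

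Transcription factors of trophoblast held the most called members in number, among lists of unequal length that were chosen with earlier results of these data known. Of 34 measured, 7 were called higher: HOPX, ESRRG, TBX3, OVOL1, TFAP2A, BHLHE40 and GATA2. Of the 34, 24 reached 10 CPM in STB or in the other cells. Among all 8343 genes that did so, 0.971% were called higher and 0.0719% lower. TBX3, a T-box repressor, stood at 254, 430 and 666 CPM in STB against 8.19, 36.3 and 79.8 CPM (median log2 ratio 3.54). OVOL1, a zinc finger repressor of progenitor genes, had 2.59 and TFAP2A 2.52. BHLHE40, a helix-loop-helix repressor, had 2.50 and GATA2 2.30. The list's median log2 ratio was 0.36, so most of the 34 were not high in every library. GATA3 passed 2-fold in 7 of 9 libraries (1.39).

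**Figure D2:**
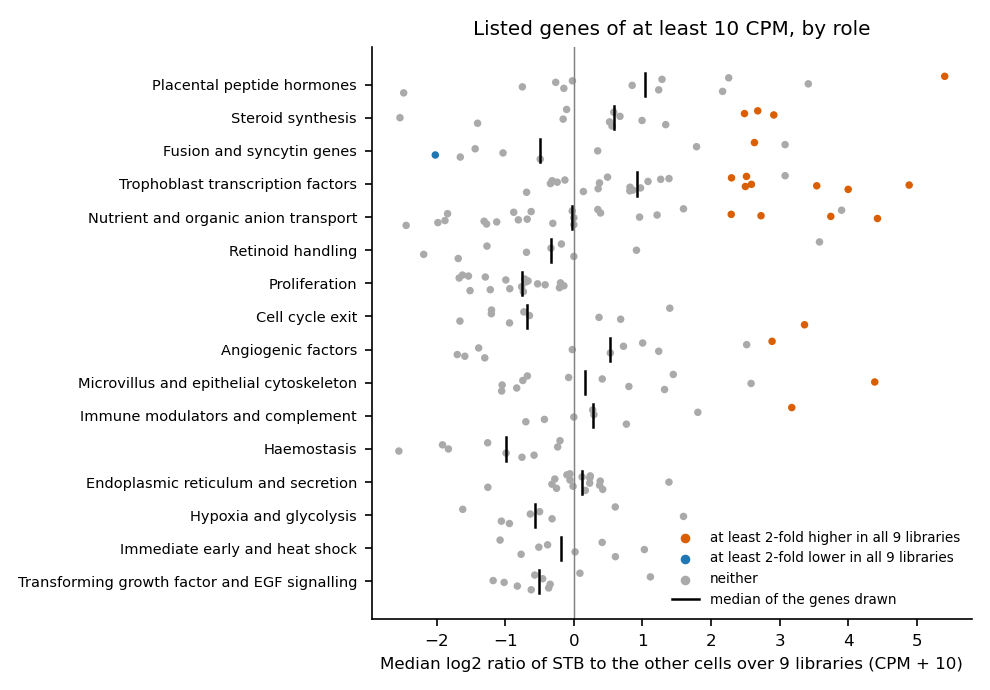
Median log2 ratio of STB to all other cells over 9 libraries for the listed genes at 10 CPM or more, grouped by role, with orange for genes called higher, blue for genes called lower, grey for the rest and a bar at the median of the genes drawn, which leaves out the low genes that the list medians in the text include. Trophoblast transcription factors hold 7 genes called higher, the most of the functional lists, and the proliferation genes lie mainly below 0 without a call.

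Transport genes were called for iron, folate and sulfate carriers. Of 36 measured members, SLC13A4, SLC40A1, TFRC and SLC19A1 were called higher, with a list median of -0.12. SLC40A1 encodes ferroportin, the iron exporter, and stood at 507, 802 and 1265 CPM against 28.3, 53.2 and 85.2 CPM in other cells. TFRC, the transferrin receptor that takes iron in, stood at 383, 774 and 1596 CPM against 67.8, 105 and 156 CPM. The levels of both iron genes in STB did not overlap those of other cells. SLC19A1, the reduced folate carrier, had a median log2 ratio of 2.29, and the glucose carrier SLC2A1 passed 2-fold in 7 of 9 libraries (1.60).

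Genes of other placental functions contributed single members. PGF, placental growth factor, was the 1 called of 12 angiogenic genes, at 110, 297 and 725 CPM against 15.2, 37.5 and 67.8 CPM. FLT1, its receptor, had a median log2 ratio of 1.00 against all other cells and was called higher against CTB (2.95). CD55, which shields cells from complement, was the 1 called of 13 immune genes, at 847, 3061 and 5290 CPM against 39.5, 218 and 487 CPM, and KRT23 the 1 called of 17 microvillus and keratin genes. No member was called among 16 retinoid, 11 haemostasis, 17 endoplasmic reticulum, 10 hypoxia, 9 immediate early and 15 growth factor signalling genes. TFPI2 (median log2 ratio -1.26) was among the haemostasis genes.

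Proliferation genes had lower sums in STB than in CTB. None of 18 proliferation genes was called in either direction against all other cells (median log2 ratio of the list -0.75), and the list's median against CTB was -1.33, with 1 of the 18, CCNB2, called lower than in CTB. MKI67, a marker of cycling cells, had a median log2 ratio of -1.62 against other cells and -2.16 against CTB, and TOP2A one of -1.54 and -2.04. The 18 genes summed to 357 to 2601 CPM in STB and to 2839 to 3886 CPM in CTB, with no overlap between the classes. MKI67 still had counts in 53.2% of STB cells (27.2% after thinning), against 79.8% of CTB (64.6%) and 44.1% of EXMC cells (27.1%). The thinned shares in STB and EXMC cells were thus about equal. Of 11 genes of cell cycle exit GADD45G was called higher, and CDKN1A passed 2-fold in 7 of 9 libraries (1.40).

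Markers of mesenchyme were low in most STB sums, whereas the sum of the CTB markers was not. None of 10 CTB, 8 EVT or 10 EXMC markers was called in either direction, and their median log2 ratios were -0.16, -1.09 and -2.59. The CTB markers summed higher in STB than in all other cells in 8 of 9 libraries, library 35 being the exception (1136 against 1681 CPM). In 3 libraries their STB sum lay above that of the CTB cells themselves: 12494 against 9448 CPM in library 11, 15089.8 against 10596 in library 13 and 7373 against 3613 in library 20. PAGE4 alone made up 11221, 14133 and 7140 CPM of these 3 STB sums. The median log2 ratio of the 10 CTB markers against CTB cells was -0.91. The EXMC markers, which include collagens, summed to 85.5 to 1557 CPM in the STB cells of libraries 11, 13, 20, 34 and 36. They summed to 5477 CPM in library 6, 6993 in library 7, 16781 in library 12 and 14343 in library 35. The CTB sums lay between 156 and 1602 CPM and those of all other cells between 10030.3 and 17498 CPM. The STB sums of libraries 12 and 35 thus lay at the level of the other cells. In library 12 the median STB cell had 16738 CPM and in library 35 1047 CPM. Without library 12 there were 18 genes called lower and without library 35 17, against 6 with all 9 libraries. Of 8 macrophage genes, 7 had counts in these libraries, and of the 7 C1QB and SPI1 were at 0 in STB cells. The list was not low in STB cells. It summed to 4.11 to 62.6 CPM (median 23.8) there and to 4.07 to 30.2 CPM (median 18.7) in all other cells.

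The observed share of STB cells varied between embryos and between libraries of an embryo, and no trend over days was detected. It was 0.481% in 1 E16 embryo (1 of 208 cells) and 4.41% in the other (12 of 272, exact binomial interval 2.30% to 7.58%, counting error only). At E18 it was 1.87% (7 of 375, 0.754% to 3.81%) and at E20 5.41% (28 of 518, 3.62% to 7.72%). At E21 it was 0 of 496 cells, 55 of them from library 26, which allows a share of up to 0.605% by a limit of 3 counts (exact binomial upper limit 0.741%). At E22 it was 0.756% (4 of 529), at E23 5.48% (30 of 547, 3.73% to 7.74%) and at E25 2.41% (11 of 457, 1.21% to 4.27%). The intervals of the E20 and E23 embryos did not overlap those of the E21 and E22 embryos between them.

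At E24 the share was 3.76% in the libraries with agreeing labels (7 of 186, 1.53% to 7.60%) and 11.7% in library 27 (11 of 94, 5.99% to 19.97%), together 6.43%. Over 42 libraries the share did not follow the day (permutation test, two-sided, Spearman rho 0.12, p = 0.443, Pearson r 0.11, p = 0.474). Without the 2 libraries farthest from the median day r was 0.04 (p = 0.808, permutation test). Over the 9 embryos rho was 0.19 (exact permutation p = 0.619). Within codes rho was 0.34 for 20210727 (exact permutation p = 0.419), 0.55 for 20210820 (permutation p = 0.144) and -0.41 for 20210308 as the labels give it (exact permutation p = 0.571). In all 20 such correlations were computed, with a smallest raw p of 0.119 and a smallest Benjamini-Hochberg adjusted p of 0.774. The E20 and E18 libraries were alone in their codes, so there day and code cannot be told apart.

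**Figure D3:**
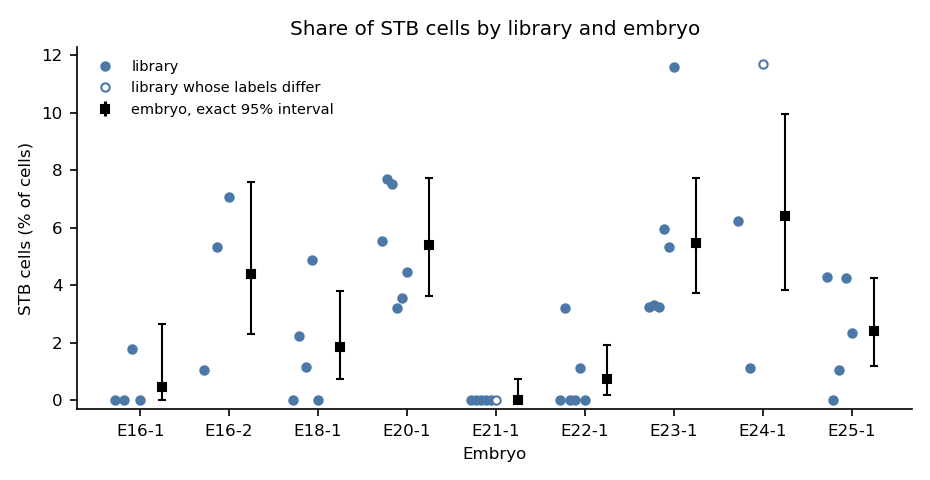
STB cells as a percent of all cells by embryo; dots are libraries, open circles the 2 libraries whose labels differ, and squares the embryo's share with its exact 95% binomial interval. The E20, E23 and E24 embryos (E24 with library 27) lie above 5% and the E21 embryo at 0.

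The embryos differed in which marker their STB cells carried. GAST had counts in 18 of 18 E24 cells, 11 of them from library 27 (3094 CPM summed), 12 of 30 E23 cells (96.5 CPM) and 4 of 28 E20 cells (12.9 CPM). A single cell held 57.2% of the GAST counts of E24. SLC10A1 had counts in 24 of 30 E23 cells (536 CPM), 2 of 18 E24 cells (2.17 CPM) and 0 of 7 E18 cells. The 2 genes were therefore high in different embryos. DHRS9 had counts in 24 of 30 E23 cells, 12 of 18 E24 cells and 11 of 11 E25 cells, at 420.1, 623 and 373 CPM, and in 3 of 12 cells of the second E16 embryo at 5.20 CPM. Of the E24 cells, DHRS9 was counted in 7 of 7 with agreeing labels and in 5 of 11 of library 27. CGA was less uneven, from 20369 CPM in the single cell of the first E16 embryo and 21637 CPM at E22 to 80742 at E24. In the E24 libraries with agreeing labels CGA stood at 83278 CPM and in library 27 at 77993 CPM.

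The 7 E18 cells differed from most other STB cells in several secreted products. These genes were singled out after their values were seen. LEP had a median of 9604 CPM in the E18 cells and 4.61 CPM in the other 104 STB cells, and INHA medians of 1471 and 0 CPM. SDC1, a cell surface proteoglycan of the syncytial surface, had medians of 1108 and 123 CPM. KRT23 went the other way, with a median of 0 against 874 CPM, and reached 100 CPM in 0 of the 7 E18 cells and 91 of the other 104. HSD3B1 (59.6 against 941 CPM) and PGF (35.4 against 305 CPM) were lower as well. The single STB cell of the first E16 embryo had a similar profile in part, with 2289 CPM of LEP, 1984 of SDC1 and 0 of KRT23 and PGF, but 1907 CPM of HSD3B1. Without the E18 cells the pooled STB level of LEP was 499.9 instead of 1098 CPM, and that of INHA 20.5 instead of 112 CPM. E18 held no library with 5 STB cells and entered no comparison between days.

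**Figure D4:**
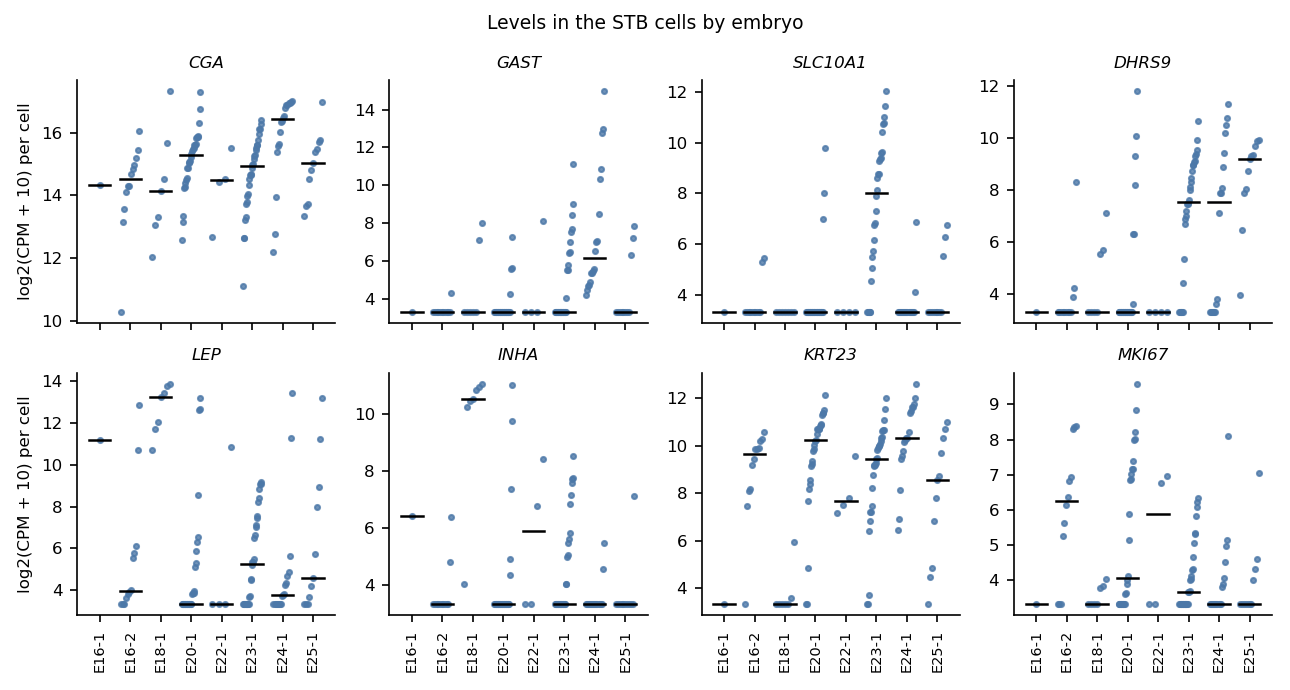
Level of 8 genes in each STB cell by embryo, as log2(CPM + 10), with a bar at each embryo's median. CGA is high in all embryos, GAST is highest at E24, SLC10A1 at E23, and LEP and INHA at E18, where KRT23 is at or near 0.

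STB sums were compared between E16 (2 libraries), E20 (3) and E23 (3) with edgeR's quasi-likelihood test, with Benjamini-Hochberg adjustment over all genes and the 3 pairs of days and a threshold of 0.05. Of 10950 genes, 15 (0.137%) rose and 112 (1.02%) fell from E16 to E20, 16 (0.146%) rose and 22 (0.201%) fell from E16 to E23, and 137 (1.25%) rose and 31 (0.283%) fell from E20 to E23. The 3 pairs share libraries. Leaving out 1 library moved the totals of 127, 38 and 168 calls to between 48 and 247, 13 and 105, and 99 and 261. The E20 libraries were alone in their code, and under the codes of the column names so were those of E23, so day, embryo and code cannot be told apart.

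Of the 4 proposed markers, SLC10A1 alone was called between days. CGA differed by 0.50 ± 0.51 (log2, SE) between E20 and E16, by 0.39 between E23 and E16 and by -0.11 between E23 and E20, with adjusted p = 0.812, 0.871 and 0.976 by edgeR. GAST had log2 differences of 2.87, 4.61 and 1.74 and DHRS9 of 3.14, 5.44 and 2.30 for the same pairs, none called. HOPX, KRT23, HSD3B1 and LEP were not called in any pair. SLC10A1 rose from 26.3, 0 and 0 CPM at E20 to 688, 89.0 and 972 CPM at E23 (log2 difference 6.26 ± 1.41, adjusted p = 0.0471, edgeR). The rise was no longer called when library 6, 7, 11, 13, 20 or 36 was left out, or with libraries of 3 or 4 STB cells added (2.61).

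Of 9 measured immediate early genes, FOS and EGR1 rose from E16 to E20. FOS, a transcription factor induced within minutes of a stimulus, rose from 20.5 and 192 CPM at E16 to 1378, 3289 and 2042 CPM at E20 (log2 difference 4.20 ± 0.74, adjusted p = 0.00989, edgeR). EGR1 rose from 15.1 and 50.2 CPM to 265, 318 and 227 CPM (2.86 ± 0.59, adjusted p = 0.0274). FOS stood at 125 and 209 CPM in CTB cells of E16 and at 3152, 4016 and 4272 CPM in those of E20. All cells other than STB together held 338 CPM of FOS in the second E16 embryo and 4481 CPM at E20. The difference was thus present in STB, in CTB and in the other cells as a whole. FOS kept its call in each of the 13 alternatives, and EGR1 lost it without library 6, 34 or 36 and with libraries of 3 or 4 STB cells added. The whole list of 9 summed to 408 and 506 CPM at E16, 2418 to 4873 at E20 and 1220.3 to 1589 at E23 in STB cells. In all other cells of the same libraries it summed to 661 and 874 CPM at E16, 5266 to 6444 at E20 and 1215 to 2334 at E23.

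HEY1 and FSTL3, which act in Notch and activin signalling, rose after E16. HEY1, a repressor induced by Notch, rose from E16 to E20 (log2 difference 4.02 ± 0.90, adjusted p = 0.045, edgeR) and to E23 (4.58 ± 0.92, adjusted p = 0.0234), where it stood at 150, 272 and 105 CPM, and at most at 27.1 CPM in CTB. FSTL3, a secreted binder of activin, rose from 42.5 and 50.2 CPM at E16 to 416, 303 and 370 CPM at E20 and 218, 1032 and 807 CPM at E23 (2.85 ± 0.62 and 4.04 ± 0.66, adjusted p = 0.0391 and 0.00653). Neither range of FSTL3 overlapped that of E16. DEFB1, a defensin of epithelia, rose from 0 and 6.84 CPM to 279, 17.8 and 229 CPM at E20 and 438, 251 and 529.8 CPM at E23 (adjusted p = 0.0355 and 0.0116). The membrane protein CD46, a regulator of complement, rose from 19.2 and 10.8 CPM at E16 to 559, 124 and 741 CPM at E23 (5.15 ± 0.90, adjusted p = 0.00956), with CTB at 23.9 and 33.2 CPM and then 171, 201 and 200.002 CPM. GPX3, a secreted peroxidase, rose from 19.2 and 13.1 CPM to 389, 332 and 678 CPM (5.01 ± 0.70, adjusted p = 0.00196), with CTB at 2.08 and 18.6 CPM and then 124, 219 and 175 CPM. HMOX1, which degrades haem, rose by 3.23 ± 0.71 (adjusted p = 0.0418). CD46 and GPX3 were thus higher at E23 in CTB as well. FSTL3 in CTB also went up, from 2.08 and 5.82 CPM at E16 to 60.0, 34.2 and 80.8 CPM at E20. DEFB1 in CTB stood at 0 and 15.7 CPM at E16 and at 83.0, 15.2 and 56.2 CPM at E20. Most of the STB calls in this group of genes depended on the 2 E16 libraries. Without library 6, HEY1, FSTL3 and DEFB1 were not called at E20, nor FSTL3, DEFB1, CD46 and HMOX1 at E23. Without library 7, HEY1, FSTL3 and DEFB1 were not called at E20, nor HEY1, FSTL3, CD46, GPX3 and HMOX1 at E23, and none of the rises to E23 was called within code 20210308.

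ACTA2 and MYL7, genes of contractile cells, fell from E16 to E20. ACTA2, smooth muscle actin, fell from 1602 and 1382 CPM at E16 to 1.03, 38.9 and 1.42 CPM at E20 (log2 difference -7.01 ± 1.46, adjusted p = 0.028, edgeR). MYL7, a myosin light chain of the atria, fell from 168 and 140 CPM to 0 in all 3 E20 libraries, at least 316-fold lower against a floor of 3 counts over the group (adjusted p = 0.0039). At E16 the other cells of the same libraries held 2222 and 2627 CPM of ACTA2 and 236 and 415 CPM of MYL7, and CTB cells 96.8 and 164 CPM of ACTA2. Both genes were lower at E20 in other cells too. Summed over the second E16 embryo and the E20 embryo, these held 2568 and 42.8 CPM of ACTA2 and 305 and 2.86 CPM of MYL7. A single cell held 55.4% of the ACTA2 and 51.4% of the MYL7 counts of STB cells in the second E16 embryo. The EXMC markers in STB cells stood at 5477 and 6993 CPM at E16, and were highest in library 12 of E23, where MYL7 was at 0. Their part in these falls was not tested. Without library 6 neither fall was called, and that of ACTA2 was also lost without library 7, 20, 34 or 36.

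NPPA and TFPI2 were at or near 0 in the STB sums of E23. NPPA, atrial natriuretic peptide, stood at 385 and 102 CPM at E16, at 108, 19.4 and 97.7 CPM at E20 and at 0 in all 3 E23 libraries. It fell at least 179-fold from E16 (adjusted p = 0.00197, edgeR) and at least 61.5-fold from E20 (adjusted p = 0.00584). Other cells of the E16 libraries held 5.97 and 6.80 CPM. NPPA was counted in 10 of 12 cells of the second E16 embryo, 10 of 28 E20 cells and 2 of 30 E23 cells, and the fall from E16 was not called with libraries of 3 or 4 STB cells added (-4.67) or within code 20210308. TFPI2, a secreted protease inhibitor, fell from 171 and 418 CPM at E16 to 0, 1.01 and 0 CPM at E23 (-9.33 ± 1.75, adjusted p = 0.0152). A single cell held 74.0% of its STB counts in the second E16 embryo. Other cells of that embryo held more TFPI2 than STB cells (557 against 343 CPM) and those of E23 held 3.48 CPM. The fall of TFPI2 was not called without library 7, 11 or 13 or with DESeq2.

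The genes that fell from E20 to E23 included ID3, INSIG1, RRM2 and CCNE1. ID3, an inhibitor of helix-loop-helix factors induced by BMP, fell from 2905, 922 and 3946 CPM to 308, 179 and 266 CPM (log2 difference -3.20 ± 0.53, adjusted p = 0.00655, edgeR), a call kept in each alternative tried. INSIG1, a brake on sterol synthesis, fell from 885, 672 and 2463 CPM to 69.9, 1.01 and 59.5 CPM (-4.77 ± 0.92, adjusted p = 0.0182), with CTB at 402, 419 and 523 CPM and then 85.3, 41.8 and 51.3 CPM. RRM2, a subunit of ribonucleotide reductase, fell from 526, 446 and 302 CPM to 77.3, 24.3 and 11.9 CPM (-3.30 ± 0.68, adjusted p = 0.0259). CCNE1, the cyclin of entry into S phase, fell by 2.92 ± 0.61 (adjusted p = 0.0285) and PGK1, a glycolytic enzyme, by 1.77 (adjusted p = 0.0416). PAGE4, a trophoblast-expressed antigen of the PAGE family, rose from 2859, 537 and 1547 CPM to 11221, 4454 and 14133 CPM (2.79 ± 0.58, adjusted p = 0.0288). PAGE4 was also higher at E23 than at E20 in CTB (8548 against 2132 CPM) and in all other cells (3974 against 933 CPM). INSIG1 was not called without library 11 or 13, RRM2 without 12, 13, 20 or 34, and CCNE1 without 6, 7, 11, 13, 34 or 36.

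Ribosomal protein genes were lower at E20 than at the other 2 days. Of 52 tested ribosomal protein genes, a set chosen after the values were seen, 20 were called lower at E20 than at E16 (median log2 difference -1.44) and 22 higher at E23 than at E20 (1.16), whereas the median between E23 and E16 was -0.10. The 53 genes summed to 82923 and 105938 CPM at E16, 48869 to 61346 at E20, 74800 to 85095 at E23 and 54924 at E24 in STB cells. CTB cells of E20 also had the lowest sums, 62220 to 70067 CPM against 102662 to 117472 CPM in the other libraries. ATP8, a mitochondrial gene that overlaps ATP6 and is therefore uncertain, fell from 626 and 300.5 CPM at E16 to 14.9, 4.61 and 16.3 CPM at E20 (log2 difference -5.37 ± 0.62, adjusted p = 0.000564, edgeR). It was likewise low in CTB of E20, at 19.2, 14.2 and 16.5 CPM. The median log2 difference over all tested genes was 0.11, 0.00 and -0.10 for the 3 pairs.

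**Figure D5:**
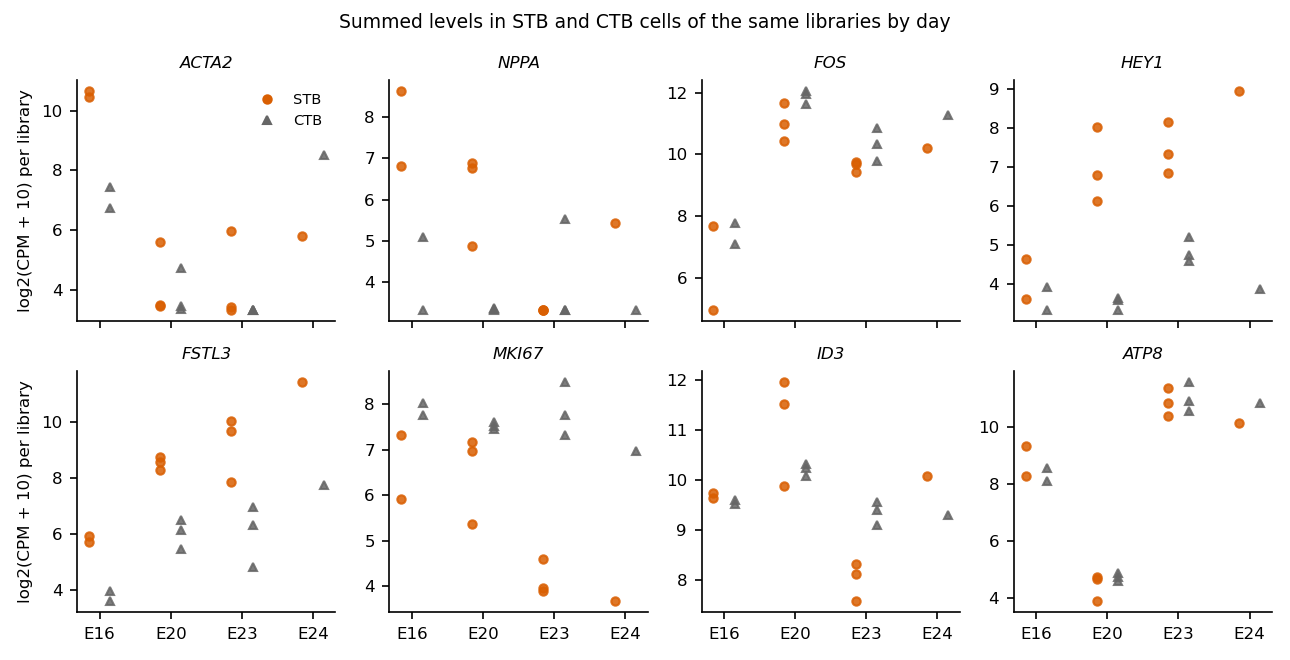
Level per library of 8 genes in STB (circles) and CTB cells (triangles) of the 9 libraries by day, as log2(CPM + 10); E24 has 1 library and entered no comparison of days. ACTA2, FOS, FSTL3 and ATP8 move in the same direction in both classes from E16 to E20. FSTL3 is higher in STB than in CTB in each library, whereas NPPA at E23 and HEY1 in library 7 of E16 are not.

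Whether a change between days differed between STB and CTB cells of the same libraries was tested with the difference of the differences, the library as a block. Of 12167 genes, 1 (0.00822%) had a positive and 4 (0.0329%) a negative STB minus CTB difference from E16 to E20. From E16 to E23 these were 6 (0.0493%) and 6 (0.0493%), and from E20 to E23 8 (0.0658%) and 13 (0.107%). The median difference over all genes was -0.35, -0.44 and -0.04. No gene was called without the block, nor without library 20, the 1 library of E24. That library adds nothing to the 5 residual degrees of freedom, and without it 10663 genes passed the filter and the prior degrees of freedom that edgeR lends to each gene were 12.3 instead of 44.3. The sizes moved little (MKI67 -3.80 instead of -3.69 from E20 to E23). Which of these changes removed the calls was not tested.

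Of the 18 proliferation genes, MKI67, TOP2A and CDK1 had a negative STB minus CTB difference from E20 to E23 that passed the test. MKI67 stood at 135, 116 and 31.2 CPM in STB of E20 and at 4.91, 14.2 and 5.49 CPM in STB of E23, while CTB held 187, 166 and 174 CPM and then 149, 349 and 206 CPM (difference -3.69, adjusted p = 0.00615, edgeR). The STB levels of the 2 days did not overlap, and those of CTB did. TOP2A (-3.15, adjusted p = 0.0227) and CDK1 (-3.14, adjusted p = 0.0375), both of mitosis and its preparation, were the others. MKI67 within STB alone was not called between E23 and E20 (-3.21, adjusted p = 0.0889).

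For BHLHE40, SGK1, ID3 and EZR too the difference between days was not the same in both classes. BHLHE40 stood at 789, 595 and 877 CPM in STB of E20 and 724, 561 and 824 CPM at E23, while CTB went from 322, 280.2 and 254 to 65.8, 58.8 and 36.1 CPM (difference 2.43, adjusted p = 0.00188, edgeR). SGK1 stood at 696 and 552 CPM in STB of E16 and at 1051, 188 and 672 CPM at E23, while CTB went from 23.9 and 6.40 to 119, 120 and 78.4 CPM (difference -3.09). ID3 fell in STB as given above, while CTB held 1262, 1070 and 1187 CPM at E20 and 742, 533 and 659 CPM at E23 (difference -2.22, adjusted p = 0.00235). EZR, which links the actin of microvilli to the membrane, went from 2098, 1595 and 1154 to 2963, 1146 and 4234 CPM in STB and from 684, 472 and 573 to 330, 291 and 353 CPM in CTB (difference 1.54).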

How the data were processed

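Single-cell RNA counts of 21834 genes in 3682 cells of 44 libraries were analysed, with the cell classes and embryos of the authors' annotation. The authors deposited raw counts per gene and cell. Per the submitters' processing notes cutadapt 1.15, STAR 2.6.0a and HTSeq 0.10.0 were used, and the genome build is not given in the sources used here. Whether the counts are of reads or of molecules is not given either, and whether doublets were removed is not given; no doublet caller was run. Of the genes, 16240 have a symbol and the rest an identifier only.

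Counts were summed per library and class. Ratios used CPM with 10 CPM added, in libraries with at least 5 STB cells and agreeing labels. Days were compared with edgeR 4.0.16 (R 4.3.3, limma 3.58.1), a quasi-likelihood F test on TMM-scaled sums. DESeq2 1.42.0 was an alternative. Shares were tested with permutation tests in scipy 1.17.1 (100000 resamples, or exact under 10 values). Named genes were the 25 called higher and 5 called lower with the largest median ratio at 50 CPM or more, up to 10 per direction and pair of days, the proposed markers, list members called or defining a list, and list members beside them that were chosen after their values were seen. The members and the lists were chosen with earlier results of these data known. On simulated counts for E23 against E20 (10145 genes) the test recovered 10% of genes changed 4-fold and 36% of those changed 16-fold. Its calls there were 46 true and 7 false ones. Alternatives were other pseudocounts, cell minimums, scalings, filters and left-out libraries.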

Additional observations from a re-analysis of the deposited data

Results flagged for a closer look

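The STB share had a library far from the others of its day by Dixon's test at E22, where the highest library held 3.23% STB cells, and at E23, where it held 11.6%. The critical values are set for normal values, where chance alone does so in about 1 in 20 groups. These shares rest on few cells, 3 of 93 in the flagged E22 library, with ties at 0 between E22 libraries. That rate therefore need not hold here. Library 27, whose title and time label differ and which was left out of the main tests between days, held 11.7% STB cells.

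The change between days differed between STB and CTB cells of the same libraries for the following named genes (log2 difference of STB minus CTB, edgeR with the library as a block). From E16 to E20 the differences were -7.06 for RGCC, -3.82 for LARP7 and -3.76 for SERPINE2, a protease inhibitor. From E16 to E23 they were 7.26 for APBB1IP, 7.05 for the interferon-induced GBP1, 4.42 for DEFB1, 2.39 for PPP1R14A and 2.31 for SERPINB9. In the same pair they were -13.54 for NPPA, -11.33 for RGCC, -4.31 for SERPINE2, -3.09 for SGK1 and -3.02 for TPM1. NPPA and RGCC were at 0 in STB cells of the 3 E23 libraries compared, so their fitted sizes depend on the prior count and are no measure of size.

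From E20 to E23 they were 9.38 for HSD17B1, 6.43 for GBP1, 2.65 for DAB2, 2.43 for BHLHE40, 2.28 for SERPINB9 and 1.54 for EZR. HSD17B1, an enzyme of oestradiol synthesis, stood at 0, 12.2 and 0 CPM in STB cells of E20 and at 63.8, 75.9 and 84.2 CPM at E23, with CTB at most at 21.1 CPM. The negative differences were -16.22 for NPPA, -3.69 for MKI67, -3.39 for PRC1, -3.29 for ID2, -3.27 for TPX2, -3.15 for TOP2A, -3.14 for CDK1, -2.49 for MDM2 and -2.22 for ID3. None of these was called without library 20 of E24.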

How the results depend on the processing

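Of the 30 leading genes and the called genes that were refitted for days, none reversed its direction. Of 540 repeated ratios of the 30 leading genes, 505 kept their call and 35 lost it, the latter including KRT23 and SLC13A4 when libraries of 3 or 4 STB cells were added. The 81 genes called higher became 34 with at least 3 cells per library, 1122 with at least 10 cells (1 library) and 44 with 50 CPM added, and 82 to 101 when 1 library was left out. The 6 called lower became 1 with at least 3 cells, 2580 with at least 10, 69 with 1 CPM added, 0 with 50 CPM added and 16 with means over cells, and 6 to 18 when 1 library was left out. The share by day turned negative as a share of trophoblast cells (rho -0.10, r -0.25) and within code 20210308 (rho -0.41, r -0.20).

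The calls between days (127, 38 and 168 for E20 against E16, E23 against E16 and E23 against E20) became 327 (98 up, 229 down), 194 (107 up, 87 down) and 491 (328 up, 163 down) with DESeq2's Wald test. Without a filter on low counts they became 335 (109 up, 226 down), 229 (113 up, 116 down) and 422 (263 up, 159 down). They became 353 for the last pair with at least 3 cells and 4 for E23 against E16 within code 20210308. Leaving out 1 library gave 48 to 247 (48 without library 7, 62 without 6, 247 without 35), 13 to 105 (13 without 6 or 7, 105 without 35) and 99 to 261 (261 without 35). DESeq2's size factors gave 138, 39 and 190. For STB minus CTB the 5, 12 and 21 calls became 42, 52 and 62 without a filter and 0, 0 and 0 without the library block. Leaving out 1 library gave 0 to 81, 0 to 43 and 0 to 68, with 0 without library 20 and the highest without library 35. A minimum of 10 cells was not run for days, since 1 library was left. No paired analysis was possible because the libraries of different days share no replicate number. Sums of 5 to 11 STB cells limit all comparisons of days.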

Other observations

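Of the 6 genes called higher that the files name by identifier only, the most abundant were ENSMFAG00000032669 and ENSMFAG00000002580, at 6455 and 3603 CPM in STB cells against 55.0 and 23.6 CPM in other cells.

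The 11 STB cells of library 27 held 4288 CPM of GAST, and the 7 STB cells in the E24 libraries with agreeing labels 1993 CPM. Natriuretic peptide and defensin genes varied widely between embryos. NPPB stood at 1832 CPM in STB cells of E20 and 1096 CPM in those of the second E16 embryo. DEFB1 stood at 6909 CPM at E25, 4675 at E24, 2015 at E22, 965 at E18, 164 at E20 and 4.80 in the second E16 embryo. CDH5, an adhesion gene of endothelium, stood at 334 CPM in the second E16 embryo and 494 CPM at E20, and at most at 48.8 CPM in the other embryos. ANGPT2, a ligand of the endothelial receptor TIE2, stood at 4114 CPM at E18, and its pooled STB level was 31.3 CPM without the E18 cells and 304 CPM with them.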
